A study of Mus musculus with 4 samples.

Results

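The killer cell lectin-like receptors, the Klr family, are the surface receptors by which natural killer (NK) cells and related lymphocytes read other cells. The family was taken as every gene whose symbol starts with Klr in the feature list of the ligated library and whose gene ID is in the lists of all 4 libraries, which gave 26 of 30406 genes, with no Klr symbol lost in the join. The libraries are single-cell RNA-seq (10x Genomics droplets) of submandibular salivary gland from female C57BL6/J mice, from which magnetic beads had removed EpCAM+ epithelial and Ter119+ erythroid cells and a further step the dead cells; the protocol text says that submandibular and sublingual glands were harvested together. Duct ligation, in which the main ducts were closed with a metal clip, gave 1 library at 14 days, and mock surgery, in which the ducts were found but not clipped, gave 3. No label says how many animals made up a library, or that the mock libraries came from separate animals, so the p-values below measure only the spread between these libraries, which may be technical.

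NK cells carry inhibitory receptors that bind MHC class I molecules and activating receptors that bind stress-induced, viral or related ligands, and the balance between them decides how a cell responds. In the mouse most of these receptors are C-type lectin-like proteins whose genes lie together in the NK gene complex on chromosome 6. The largest branch, Ly49 (Klra genes), is switched on gene by gene, so that each NK cell carries its own subset, and the salivary gland is known for NK-lineage cells with features of tissue-resident group 1 innate lymphoid cells (ILC1).

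Lymphocytes were grouped by clustering that left out every Klr gene, and named from markers that include no Klr gene, so that Klr levels did not set the groups. The NK or ILC1-like class held 3111 ligated cells and 629, 918 and 1361 cells of mock 1, 2 and 3, and the T-like class 976, 112, 206 and 276. Within the first, a large ILC1-like group held 2681, 415, 604 and 918 cells. It is called the Gzmc group here because granzyme C (Gzmc) had a UMI in 88.2% of its cells and in 22.6% of NK-like cells, though Gzmc was not among the first genes by fold of its sub-clusters, which included Dcpp3, Ccl1 and Ncald. It took the sub-clusters that met neither the NK-like nor the Tmem176b rule. The natural killer receptor Ncr1 was found in 85.4% of its cells and the ILC1 integrins Itga1 and Itgae in 87.1 and 71.7%. Its ILC1-like name has limits: 7 of 13 ILC1 markers were found in at least 25% of its cells. Il7r was found in 1.58% of them, Cd200r1 in 11.3% and the transcription factor Eomes in 30.9%. Its sub-clusters scored -0.13 to 0.27 for ILC1 markers and -0.08 to 0.24 for circulating-NK markers, ranges that overlap. A small ILC1-like group, called by the membrane protein gene Tmem176b (a UMI in 81.9% of its cells; its first genes by fold were Dcpp3 and Dcpp2), held 75, 24, 36 and 69 cells, and the NK-like group, with the transcription factor Eomes in 68.3% of cells, held 355, 190, 278 and 374. The NK-like name has limits: Itga1 was found in 53.0% of those cells, Itgae in 5.1% and the circulating-NK marker S1pr5 in 1.5%. In the T-like class, 283, 41, 53 and 98 cells carried both T cell genes (Cd3e in 95.4%) and Ncr1 (48.8%); their leading genes include the T cell receptor gamma genes Trgv2 and Tcrg-C1, and they are called T cells with NK genes here.

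The libraries held 29897488 to 80187555 UMIs (unique molecular identifiers, the counted transcripts), at a median of 3507.5 to 5413.5 UMIs per barcode, and 4513 to 12698 cells were analysed per library. Per the file headers, the matrices of the ligated library and mock 1 came from another software version than those of mock 2 and 3, and when all cells were clustered together, the NK or ILC1-like cells of these pairs lay in different clusters: the largest held 2958, 443, 5 and 11 cells, and the next 6, 5, 642 and 959. Between 11 and 61 cell barcodes were shared by each pair of libraries. Klr RNA in endothelial-like cells, which should lack it, was higher in the ligated library. All Klr genes together had 90.1 CPM (counts per 1000000 UMIs of the cell group) there, and 17.6, 5.50 and 7.15 in the mock libraries. Fibroblast-like cells were also highest after ligation, at 227, with 56.6, 36.2 and 125 in mock 1, 2 and 3. Mural-like and glia-like cells were not. The mural-like values were 224 after ligation and 9.36, 65.6 and 410 in the mock libraries. Glia-like cells were lowest after ligation, at 190, with 673, 408 and 544 in the mock libraries. Genes of salivary acinar secretion, Dcpp1 to Dcpp3, led some ILC1-like sub-clusters. The part of such free RNA in the results was not tested.

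All 26 members lie on chromosome 6 (mm10) and 23 on the minus strand, and the 11 Klra genes are the last by position, from Klra17 to Klra2. Several are close copies of one another, and a read of 90 bases cannot always place a UMI: 13 members share at least 1 stretch of that length with another annotated transcript, the most being Klrb1b (22.9% of its stretches), Klrc3 (18.7%), Klrc1 (18.6%), Klra8 (16.1%) and Klrb1c (11.5%). The stretches of Klrb1b are shared only with Gm44511, an annotated gene that overlaps Klrb1b and Klrb1c on the same strand, and not with another member. Klra4, Klra1, Klra5, Klre1, Klrd1 and Klrk1 share none. Only transcripts of chromosome 6 were searched. Levels of members that share stretches are uncertain to that extent.

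The sequences just upstream of the transcription starts of 4 Ly49 genes are shown because the activating receptors Klra4 and Klra8 were both highest in NK-like cells and low in T cells with NK genes, where Klra7 and Klra1 were not low. Each is the 250 bases before the start (RefSeq, GRCm38.p6, minus strand, 5′ to 3′), at chr6:130067272-130067521 for Klra4, chr6:130129899-130130148 for Klra8, chr6:130233323-130233572 for Klra7 and chr6:130386875-130387124 for Klra1. Capitals mark a Runx motif (TGTGGT, or ACCACA on the other strand) or a TCF motif (CTTTGA, or TCAAAG).

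Klra4: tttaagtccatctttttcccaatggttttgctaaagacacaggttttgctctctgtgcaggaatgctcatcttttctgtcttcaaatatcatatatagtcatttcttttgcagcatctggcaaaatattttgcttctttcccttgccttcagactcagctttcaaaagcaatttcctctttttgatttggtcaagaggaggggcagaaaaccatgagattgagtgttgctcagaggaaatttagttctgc

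Klra8: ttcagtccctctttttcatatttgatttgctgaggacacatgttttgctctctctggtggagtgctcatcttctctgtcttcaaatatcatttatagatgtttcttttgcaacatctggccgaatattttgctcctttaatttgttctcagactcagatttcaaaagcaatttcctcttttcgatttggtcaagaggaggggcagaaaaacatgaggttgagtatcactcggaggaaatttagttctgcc

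Klra7: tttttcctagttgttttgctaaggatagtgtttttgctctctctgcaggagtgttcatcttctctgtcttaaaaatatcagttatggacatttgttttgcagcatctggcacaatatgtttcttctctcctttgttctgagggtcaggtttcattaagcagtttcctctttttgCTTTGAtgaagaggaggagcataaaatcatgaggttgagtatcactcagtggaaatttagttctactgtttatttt

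Klra1: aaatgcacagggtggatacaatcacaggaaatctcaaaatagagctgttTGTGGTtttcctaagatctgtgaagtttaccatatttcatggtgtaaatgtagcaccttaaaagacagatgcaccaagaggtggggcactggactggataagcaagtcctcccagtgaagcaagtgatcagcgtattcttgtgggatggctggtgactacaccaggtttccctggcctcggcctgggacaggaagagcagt

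The upstream sequences shown for Klra4 and Klra8 were identical at 84.5% of aligned positions, those for Klra7 and Klra8 at 75.2% and those for Klra4 and Klra7 at 74.0%. Klra7 and Klra8 each have another annotated start, which is not shown. With it, identity was 50.0% for Klra4 and Klra8 and 45.9% for Klra4 and Klra7. For Klra7 and Klra8 it was 46.1 to 49.1%, so these values depend on the start chosen. Sequences were aligned end to end, so windows shifted against each other score low even where they share bases. The Klra8 windows of both starts overlap, and their identity was still only 50.2%. The low values therefore do not show that the sequences at the other starts are unlike. Of the 23 members with an entry in the promoter table, 8 held a Runx motif (Klra1, Klrb1a, Klrb1c, Klrc1, Klrc2, Klrc3, Klre1 and Klrk1), against 15.9% of all genes, and 3 a TCF motif (Klra6, Klra7 and Klrb1f), against 15.8%. None held the T-box motif AGGTGTGA (or TCACACCT), which 1.30% of all genes hold. A match is a description of these letters and not evidence of binding.

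Levels below are CPM of the cell group, given in the order ligated, mock 1, mock 2 and mock 3, as a description across groups with no test. Summed over all members, the family stood at 5713, 6365, 7882 and 7782 in the Gzmc ILC1-like group, at 6477, 7296, 9510 and 9301 in NK-like cells and at 4351, 4805, 5213 and 5062 in the Tmem176b group. T cells with NK genes reached 4180, 4470, 4937 and 5021. CD8 T-like cells, with 600, 800, 1175 and 998, lay below these 4 groups in every library, and CD4 T-like cells were lower again. The T cells with NK genes thus stood closer to the ILC1-like groups than to other T cells, at a median of 4822 to 6724 UMIs per cell, which is near the 4881 to 6554.5 of NK-like cells.

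**Figure D1:**
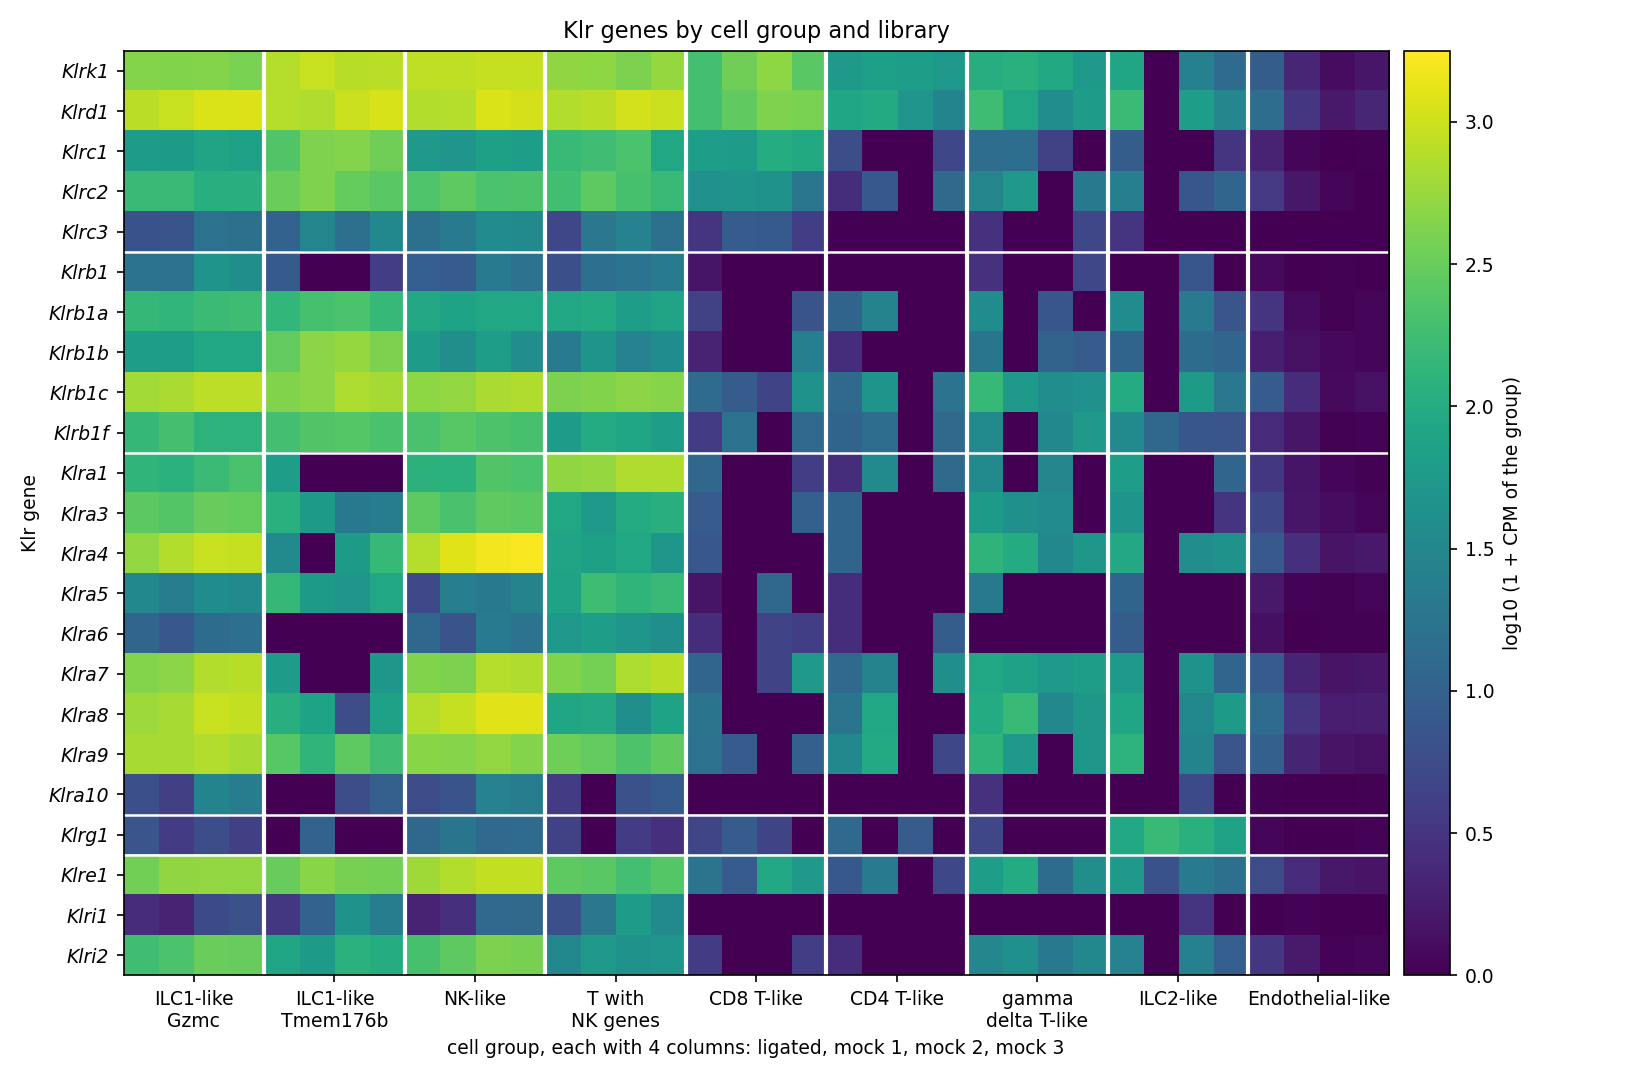
Level of the 23 members with at least 100 UMIs in a class, on a log10 scale of 1 plus CPM of the group, by gene (vertical) and by cell group with a column each for ligated, mock 1, mock 2 and mock 3 (horizontal). Most members were high in both ILC1-like groups, NK-like cells and T cells with NK genes; the Tmem176b group was low for most Klra genes, and Klrg1 stood out in ILC2-like cells.

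The CD94/NKG2 branch was present in the NK-like, ILC1-like and CD8 T-like groups. Klrd1 encodes CD94, the partner chain of NKG2A and NKG2C, and stood at 827, 936, 1179.8 and 1206 in Gzmc ILC1-like cells, 779, 719, 989 and 1138 in the Tmem176b group, 747, 774, 1158 and 1089 in NK-like cells and 760.2, 828, 1052 and 964 in T cells with NK genes. These 4 groups overlapped, and CD8 T-like cells, at 187, 287, 415 and 397, were below them in every library. After thinning each cell to 1500 UMIs, a Klrd1 UMI was found in 69.2, 71.3, 80.2 and 79.2% of NK or ILC1-like cells against 2.19, 0.310, 0.136 and 0.145% of endothelial-like cells.

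Klrk1 encodes NKG2D, an activating receptor for stress-induced ligands. It was lowest of the NK and ILC1 groups in Gzmc ILC1-like cells, at 442, 425, 445 and 395, and higher in every library both in the Tmem176b group (781, 959, 803 and 811) and in NK-like cells (873, 863, 920.4 and 923). T cells with NK genes had 519, 492, 407 and 547, and CD8 T-like cells 188, 349, 492 and 262.

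Klrc1 encodes the inhibitory NKG2A, which with CD94 binds Qa-1, and it was highest in the Tmem176b group, at 234, 412, 441 and 348. Gzmc ILC1-like cells had 62.3, 57.5, 78.7 and 71.3 and NK-like cells 56.2, 48.3, 68.7 and 63, with no overlap with the Tmem176b group. CD8 T-like cells had 64.3, 62.1, 103 and 93.2. Klrc2, the activating NKG2C, was 318, 412, 299 and 258 in the Tmem176b group, 225, 275, 215 and 218 in NK-like cells and 152, 155, 108 and 109.6 in Gzmc ILC1-like cells. Klrc3 (NKG2E) was low throughout, at 14.8, 21.5, 35.6 and 35.2 in NK-like cells and 5.6, 6.0, 15.1 and 14.8 in Gzmc ILC1-like cells, and shares stretches with Klrc2.

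The NKR-P1 branch (Klrb1 genes) binds C-type lectin ligands of the Clec2 family. Klrb1c, which encodes the activating NK1.1 antigen, stood at 634, 683, 846 and 832 in Gzmc ILC1-like cells, 424, 479.6, 709.8 and 646 in the Tmem176b group, 503, 521, 689 and 726 in NK-like cells and 399.5, 434, 477 and 458 in T cells with NK genes. CD8 T-like cells, at 12.6, 7.76, 3.67 and 45.1, were low in every library. Klrb1b, the inhibitory receptor for Clec2d, went with the Tmem176b group: it had 292, 489, 543 and 411 there and 65.3 to 88.6 in Gzmc ILC1-like, 37.9 to 66 in NK-like and 21.7 to 47.4 in T cells with NK genes. The Tmem176b values rest on 121, 51, 111 and 142 UMIs, and the lowest of them has an exact Poisson 95% interval of 242 to 348, for counting error only.

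Klrb1a was 147, 135, 163 and 173 in Gzmc ILC1-like cells and lower in NK-like cells in every library, at 89.6, 75, 88.1 and 84.5. Klrb1f, which binds Clec2i, had 198 to 252 in NK-like cells and 61.9 to 98.4 in T cells with NK genes, with no overlap. Klrb1 was low, at 16.1, 15.2, 47.5 and 40.7 in Gzmc ILC1-like cells, and both libraries of the newer software version had higher values than the others.

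The Ly49 branch divided the cell groups further. Summed over the 11 Klra genes, Gzmc ILC1-like cells had 2668, 2958, 3923 and 3872 and NK-like cells 2860, 3366, 4707 and 4624, and the Tmem176b group had only 779, 326, 411 and 570. T cells with NK genes had 1672, 1659, 2075 and 2275, and CD8 T-like cells 70.9, 7.76, 18.4 and 81.2, beside 44.6, 7.45, 2.83 and 3.18 in endothelial-like cells.

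Klra4 (Ly49D) and Klra8 (Ly49H) are the activating receptors of this branch, and Ly49H is known for its recognition of a cytomegalovirus protein. Klra4 was highest in NK-like cells, at 767, 1218, 1549.9 and 1643, then in Gzmc ILC1-like cells, at 532, 755, 942 and 913, with each library ordered the same way. It was 78.3, 69.3, 85.7 and 51.5 in T cells with NK genes and 33.7, 0, 58.7 and 148 in the Tmem176b group. Klra8 was ordered alike, with 782, 933, 1266 and 1266 in NK-like cells, 593, 666, 934 and 904 in Gzmc ILC1-like cells and 80.3, 91.1, 40.2 and 75.5 in T cells with NK genes. Both were lower in T cells with NK genes than in the NK-like and Gzmc ILC1-like groups in every library.

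Klra1 (Ly49A), an inhibitory receptor for MHC class I, ran the other way. It was 517, 543, 726 and 718 in T cells with NK genes against 122, 116, 235 and 214 in NK-like cells and 131, 118, 164 and 205 in Gzmc ILC1-like cells, with no overlap. In the Tmem176b group, Klra1 had 62.7 in the ligated library and 0 UMIs in the 129 mock cells, which allows a share of up to 2.33% of cells with a UMI. Klra6 (Ly49F) was likewise highest in T cells with NK genes, at 52.7, 65.6, 48.2 and 40.5, against 6.03 to 21 in NK-like cells, and had 0 UMIs in all 204 cells of the Tmem176b group (a share of up to 1.47%).

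Klra5 (Ly49E), which is known from fetal and resident NK cells, was low in NK-like cells, at 4.24, 23.3, 19.4 and 27.4. Gzmc ILC1-like cells had 31.5, 21.9, 36.7 and 34.8, the Tmem176b group 147, 57.5, 49 and 86.9 and T cells with NK genes 73.7, 171, 134 and 160.1. The last 2 groups were above NK-like cells in every library. Klra7 (Ly49G), inhibitory, was at like levels in Gzmc ILC1-like cells (439, 489, 745 and 805), NK-like cells (430.3, 404, 782 and 729) and T cells with NK genes (434, 372, 718 and 828), with the libraries of the newer version above the others in each group. Klra9 (Ly49I), inhibitory, was 657, 658, 745 and 669.5 in Gzmc ILC1-like cells, above NK-like cells (463, 449.8, 524 and 438) and T cells with NK genes (345, 292, 219.5 and 283) in every library. Klra3 (Ly49C), inhibitory, was 267, 239.5, 313 and 301 in Gzmc ILC1-like cells and 274, 209, 281 and 267 in NK-like cells, which overlapped, and 88.2, 54.7, 99.1 and 110.4 in T cells with NK genes. Klra10 (Ly49J) was low, at 5.24, 3.18, 28.5 and 22.7 in Gzmc ILC1-like cells.

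Klre1 pairs with the inhibitory Klri1 or the activating Klri2. Klre1 was highest in NK-like cells, at 619, 756, 893 and 882, with 364, 516, 530.3 and 529.5 in Gzmc ILC1-like cells, 311, 470, 382 and 368 in the Tmem176b group and 274, 259, 190.1 and 243 in T cells with NK genes. Klri2 had 203, 278, 402 and 379.9 in NK-like cells and 176, 213, 323 and 316 in Gzmc ILC1-like cells, and 31.6 to 54.7 in T cells with NK genes. The inhibitory partner Klri1 went the other way across groups, with 5.27, 18.2, 61.6 and 35 in T cells with NK genes, 2.41, 9.59, 44.1 and 23.2 in the Tmem176b group and 1.61, 1.06, 4.32 and 5.42 in Gzmc ILC1-like cells.

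Klrg1, an inhibitory cadherin receptor of mature NK and effector T cells, was almost absent from these groups: NK-like cells had 11.7, 17.2, 12.1 and 12.8 and CD8 T-like cells 0 to 7.76. Its highest level was in ILC2-like cells (group 2 innate lymphoid cells; 83, 38, 76 and 103 cells), at 87.6, 152, 114 and 73.1. Klrg2 had 0 UMIs in 6019 NK or ILC1-like cells, which allows up to 0.0498% of cells with a UMI, and 0 in 1570 T-like cells (up to 0.191%). Klra17 and Klra2, with 27 and 31 UMIs in the NK or ILC1-like class, were the other members under 100 UMIs.

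Most NK or ILC1-like cells carried several Ly49 genes at once. With every cell thinned to 1500 UMIs, the mean number of Klra genes with a UMI was 2.31, 2.32, 2.66 and 2.55 per NK or ILC1-like cell in ligated, mock 1, 2 and 3, and 5.92, 5.41, 5.34 and 6.20% of cells had none. Unthinned means were 3.66, 3.52, 3.75 and 3.62. Thinning left out 4, 1, 1 and 7 shallower cells of this class, and 520, 135, 660 and 969 endothelial-like cells.

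The groups split in this measure as in the levels. Of the Tmem176b cells 57.3, 83.3, 75.0 and 78.3% had no Klra UMI, against 19.4, 26.8, 26.4 and 20.6% of T cells with NK genes. CD8 T-like cells without one made up 91.1, 100, 97.6 and 93.5%, beside 92.1, 99.2, 99.5 and 99.6% of endothelial-like cells, so that the ligated CD8 share stood at the endothelial level. At least 3 Klra genes were seen in 45.9, 50.0, 66.9 and 62.2% of NK-like cells.

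**Figure D2:**
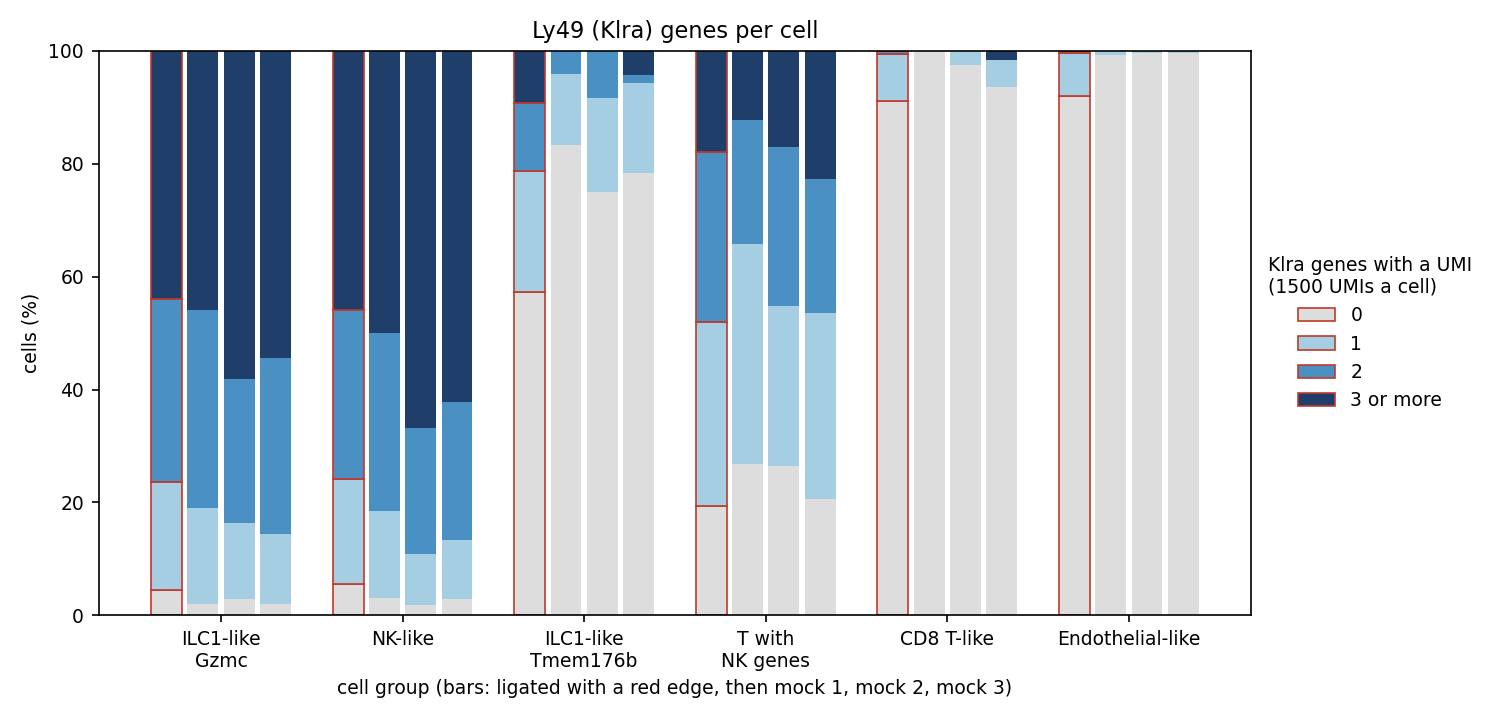
Share of cells (percent, vertical) with 0, 1, 2 or at least 3 Klra genes detected after thinning to 1500 UMIs per cell, by cell group, with bars for ligated (red edge), mock 1, mock 2 and mock 3. Gzmc ILC1-like and NK-like cells were mostly in the upper classes, while the Tmem176b group, CD8 T-like and endothelial-like cells were mostly at 0.

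The study's contrast, duct ligation against mock surgery, was tested on UMIs summed per library over each class. Only the 3 mock libraries measure spread, and the test takes the lone ligated library to vary as they do. In NK or ILC1-like cells no member passed: 0 of the 25 members tested and 0 of 12032 genes (0% called) had an adjusted p under 0.05 by edgeR's quasi-likelihood test with Benjamini-Hochberg adjustment. Before adjustment, 723 genes and 3 members (Klra4, Klre1 and Klrc3) had a p under 0.05, and DESeq2 called 47 genes and 0 members.

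By position, 10 of the 25 members (40.0%) lay in the ligated library below every mock library, against 27.6% of all genes tested, and 0 lay above every mock library, against 27.2%. The median log2 fold change was -0.35 over the members and -0.02 over all genes, and 20 of 25 members were below 0 against 52.0% of genes. Klr RNA in endothelial-like cells, the shares of the sub-groups and the software version moved with this contrast, and their part in it was not tested.

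After ligation, Klra4 had 545 CPM in NK or ILC1-like cells, and 866, 1087 and 1067 in mock 1, 2 and 3. The ligated value lay below all 3 mock libraries, whose mean was 1007 ± 122 (SD, n = 3). The log2 fold change was -0.88 (SE 0.20), with an unadjusted p of 0.00888 and an adjusted p of 0.611 by edgeR's quasi-likelihood test. Klre1 had 388 against 583, 628 and 612, a log2 fold change of -0.64 (SE 0.15; edgeR adjusted p = 0.611), and its mock libraries lay close together at 608 ± 23.3 (SD, n = 3). After thinning, a Klra4 UMI was found in 45.0% of these cells in the ligated library and in 58.8, 59.4 and 57.9% in the mock libraries, and a Klre1 UMI in 42.7% against 55.7, 57.6 and 57.9%.

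Other members were less distinct from the mock spread. Klra8 had 601, 726, 999.7 and 963 and a log2 fold change of -0.57 (SE 0.23), and its mock 1 value was nearer to the ligated library than to mock 2 and 3. Klrd1 (818, 885, 1168 and 1174), Klra7 (429.8, 452, 733 and 756), Klri2 (176, 228, 339 and 323) and Klrb1c (616, 632, 798 and 798) showed the same order, with log2 fold changes of -0.39, -0.58, -0.74 and -0.26. In each of these, mock 1 lay between the ligated library and mock 2 and 3.

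Members whose ligated value lay within the mock range included Klra9 (629, 585, 668 and 591; log2 fold change 0.04, SE 0.15), Klra3 (264, 226, 295 and 281; -0.01, SE 0.21) and Klrb1a (141, 119.8, 143 and 149; 0.04, SE 0.20). Klrk1, with 492, 563, 590.3 and 546, was just below every mock library and had a log2 fold change of -0.19 (SE 0.14). Klra5 had 31.3, 23.2, 32.2 and 35, within the mock range, and Klra1 129, 115, 179 and 199, also within it.

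Several members split by library pair rather than by surgery. Klra10 had 5.08, 3.9, 27.2 and 22.2, Klri1 1.57, 1.46, 7.71 and 7.89 and Klrb1 15.2, 12.7, 38.7 and 32.9, so that the ligated library and mock 1 stood together below mock 2 and 3. Over the 23 described members, the median ratio of the mean of mock 2 and 3 to mock 1 was 1.32, and 7 members differed by over 1.5 times. Set against mock 1 alone, which shares its software version, 12 of 23 members were lower in the ligated library. The matching shares of all genes were not counted, so these counts cannot be read as a trait of the family.

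With a term for the software version, the fit sets the ligated library against mock 1 alone and takes its spread from mock 2 and 3, so its calls describe the difference between those libraries. It called 1131 genes (9.4%) and 4 of 25 members in NK or ILC1-like cells, all lower in the ligated library. Klra4 had a log2 fold change of -0.68 (SE 0.11; edgeR adjusted p = 0.000827), Klre1 -0.59 (SE 0.10; edgeR adjusted p = 0.00121), Klrb1f -0.49 (SE 0.10; edgeR adjusted p = 0.00461) and Klri2 -0.37 (SE 0.10; edgeR adjusted p = 0.027). Without mock 1, which leaves mock libraries of the other version alone, 56.6% of genes and 15 of 24 members passed, all 15 lower. Klra4, Klre1 and Klri2 passed in both of these fits, which share the lone ligated library and are not independent of each other, and Klrb1f, at 0.03, did not pass without mock 1. Over all genes, the calls of both fits were split almost evenly between lower and higher. The share of members passing without mock 1 was near that of all genes.

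**Figure D3:**
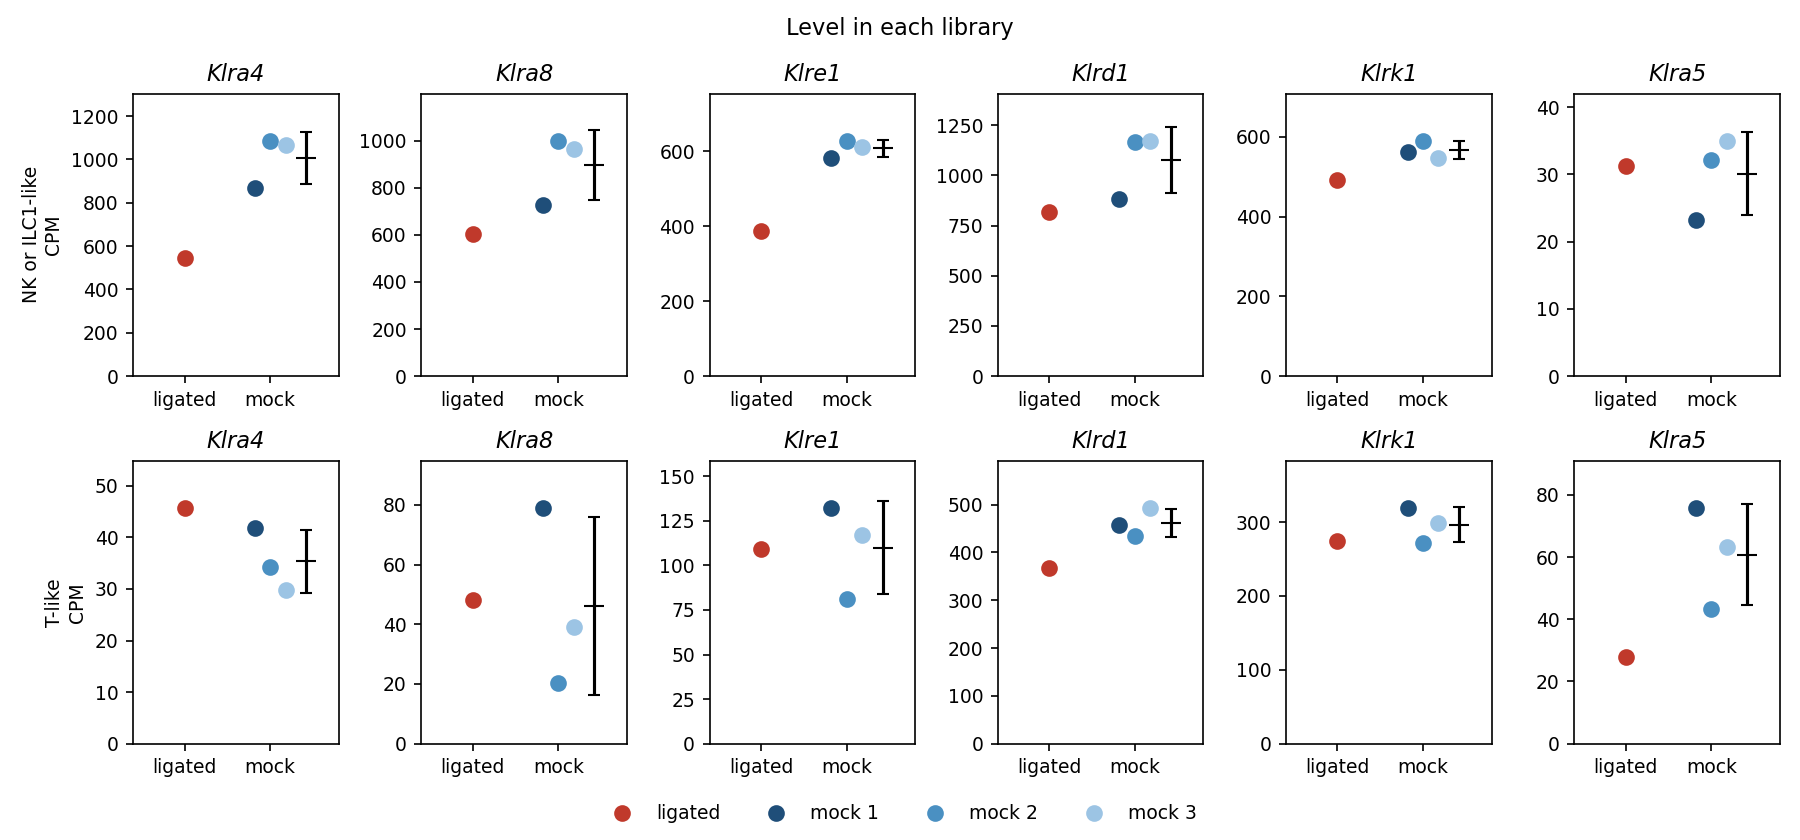
CPM of the class (vertical) in each library for 6 members, in NK or ILC1-like cells (upper panels) and T-like cells (lower panels); the bar beside the mock points is their mean ± SD (n = 3). Klra4 and Klre1 in the ligated library lie below all 3 mock libraries in NK or ILC1-like cells and not in T-like cells, while Klra5 does so in T-like cells.

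The make-up of the class differed between the ligated and mock libraries. NK-like cells, where Klra4 and Klre1 are highest, made up 11.4% of it after ligation and 30.2, 30.3 and 27.5% in the mock libraries. These shares depend on the clustering. When genes were not centred within each library before clustering, 288 of 3049 ligated cells were NK-like. In mock 1, 2 and 3 these were 517 of 622, 286 of 897 and 403 of 1343. Levels below use the main clustering. In all ILC1-like cells together and in NK-like cells the ligated library was again the lowest for both genes. In the small Tmem176b group this held for Klre1 only, and the ligated Klra4 level lay within the mock libraries. In all ILC1-like cells Klra4 had 520, 728, 904 and 871 (log2 fold change -0.66, SE 0.19; edgeR adjusted p = 0.620) and Klre1 362, 514, 524 and 521 (-0.50, SE 0.16). In NK-like cells Klra4 had 767, 1218, 1549.9 and 1643 (-0.93, SE 0.23; edgeR adjusted p = 0.674), below every mock library, and Klre1 619, 756, 893 and 882 (-0.44).

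Klra5 in NK-like cells was lower in the ligated library, at 4.24, 23.3, 19.4 and 27.4, on 8, 27, 37 and 60 UMIs (log2 fold change -2.44, SE 0.48; edgeR adjusted p = 0.674). The exact Poisson 95% interval of the ligated value, 1.83 to 8.35, lay below those of the mock libraries, of which the lowest bound was 13.7; it covers counting error only. Of the members tested, 11 of 24 in ILC1-like cells and 11 of 23 in NK-like cells were below every mock library, against 27.9% of genes in each, and 1 was above in each (Klrg1 and Klrb1a; 25.2 and 26.1% of genes). No member passed in either group. At an unadjusted p under 0.05 edgeR gave 668 and 534 genes, and DESeq2 called 19 and 7 genes, none of them a member.

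In T-like cells 0 of 21 members tested passed, with 1 of 9317 genes (0.0107%) called by edgeR; 1014 genes and 2 members (Klri1 and Klra5) had an unadjusted p under 0.05, and DESeq2 called 29 genes and 0 members. Below every mock library lay 10 members, against 27.7% of genes, and above them 1 (Klra4), against 23% of genes. The median log2 fold change was -0.18 over the members and -0.02 over all genes.

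Klra5 had 27.9 in T-like cells of the ligated library and 75.7, 43.3 and 63.2 in the mock libraries (log2 fold change -1.05, SE 0.42; edgeR adjusted p = 0.455). Within T cells with NK genes it had 73.7, 171, 134 and 160.1, on 112, 47, 50 and 87 UMIs, so that the ligated library was also below each mock library there, with no test. Klri1 had 1.8 against 8.06, 18.8 and 13.8 (-2.85, SE 0.66; edgeR adjusted p = 0.455). Klra4 had 45.7, 41.9, 34.3 and 29.8 (0.46, SE 0.33), above every mock library, but within T cells with NK genes it had 78.3, 69.3, 85.7 and 51.5, so that the ligated library lay within the mock libraries there. Klre1 had 109, 132, 80.9 and 117 (0.05, SE 0.35). Klrd1 (368, 458, 434 and 493) and Klra1 (185, 248, 229 and 286) were below every mock library, and Klrk1 (274, 319, 271 and 299) was within them. With the software-version term, 275 genes (2.95%) and 2 of 21 members passed in T-like cells, Klra5 at a log2 fold change of -1.46 (SE 0.30; edgeR adjusted p = 9.56e-05) and Klrc2 at -0.74 (SE 0.22; edgeR adjusted p = 0.028). Without mock 1, 34.5% of genes and 8 of 21 members passed, 4 of them higher and 4 lower. Set against mock 1 alone, 19 of the 23 described members were lower in the ligated library in T-like cells. The share of all genes lower in that comparison was not counted, so this count cannot be read as a trait of the family.

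The T-like class also differed in make-up. CD8 T-like cells, which carry few Klr transcripts, made up 47.4% of it in the ligated library and 22.3, 19.9 and 22.5% in the mock libraries. T cells with NK genes made up 29.0, 36.6, 25.7 and 35.5%. These shares also depend on the clustering. When genes were not centred within each library, CD8 T-like cells were 459 of 1236 in the ligated library. They were 26 of 136, 1 of 274 and 4 of 358 in mock 1, 2 and 3. Among the T-like cells the Klra4 level was also near that of macrophage or monocyte-like cells, which had 59.6, 122, 28.2 and 25.7. Gamma delta T-like cells, which are part of the class, had 128, 98.9, 32.3 and 51.3. The part of these in the class-wide values was not tested. Since UMIs were summed per class, fewer cells with a receptor and less RNA per cell cannot be told apart from these sums.

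Whether the surgery difference itself differed between the classes was tested in 1 model of both classes with a term for each library. It called 121 of 10432 genes (1.16%), 66 with a higher difference in NK or ILC1-like cells (0.633%) and 55 with a lower one (0.527%). Of 23 members tested, 3 passed. They were Klra4 (ENSMUSG00000079852, chr6:130043731-130067271), Klre1 (ENSMUSG00000050241, chr6:129577905-129585827) and Klra5 (ENSMUSG00000030173, chr6:129898996-129917650), in mm10 coordinates. The Klra4 difference was lower in NK or ILC1-like than in T-like cells by a log2 value of -1.39 (SE 0.20; edgeR adjusted p = 3.81e-05), and so was that of Klre1, by -0.73 (SE 0.16; edgeR adjusted p = 0.0152). The Klra5 difference was higher by 1.03 (SE 0.26, edgeR adjusted p = 0.0435). The class joins sub-groups that differ for Klra5, which lay below every mock library in NK-like cells and within them in ILC1-like cells.

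These calls rest on particular libraries. Without mock 2, 19 genes and 0 members passed, with Klra4 at -1.36 (edgeR adjusted p = 0.062), Klre1 at -0.51 (0.524) and Klra5 at 1.26 (0.136). Without mock 3, Klra5 was 1.08 (edgeR adjusted p = 0.0721), and without mock 1, 306 genes (2.8%) and 6 members passed. DESeq2 called 13 genes, of which Klra4 was the only member. Between the libraries of 1 software version, the log2 ratio of the ligated library to mock 1 was -0.67 for Klra4 in NK or ILC1-like cells and 0.12 in T-like cells. It was -0.59 and -0.28 for Klre1, and 0.43 and -1.44 for Klra5, so the order of the classes was that of the fit for all 3 genes. These ratios have no replicates.

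**Figure D4:**
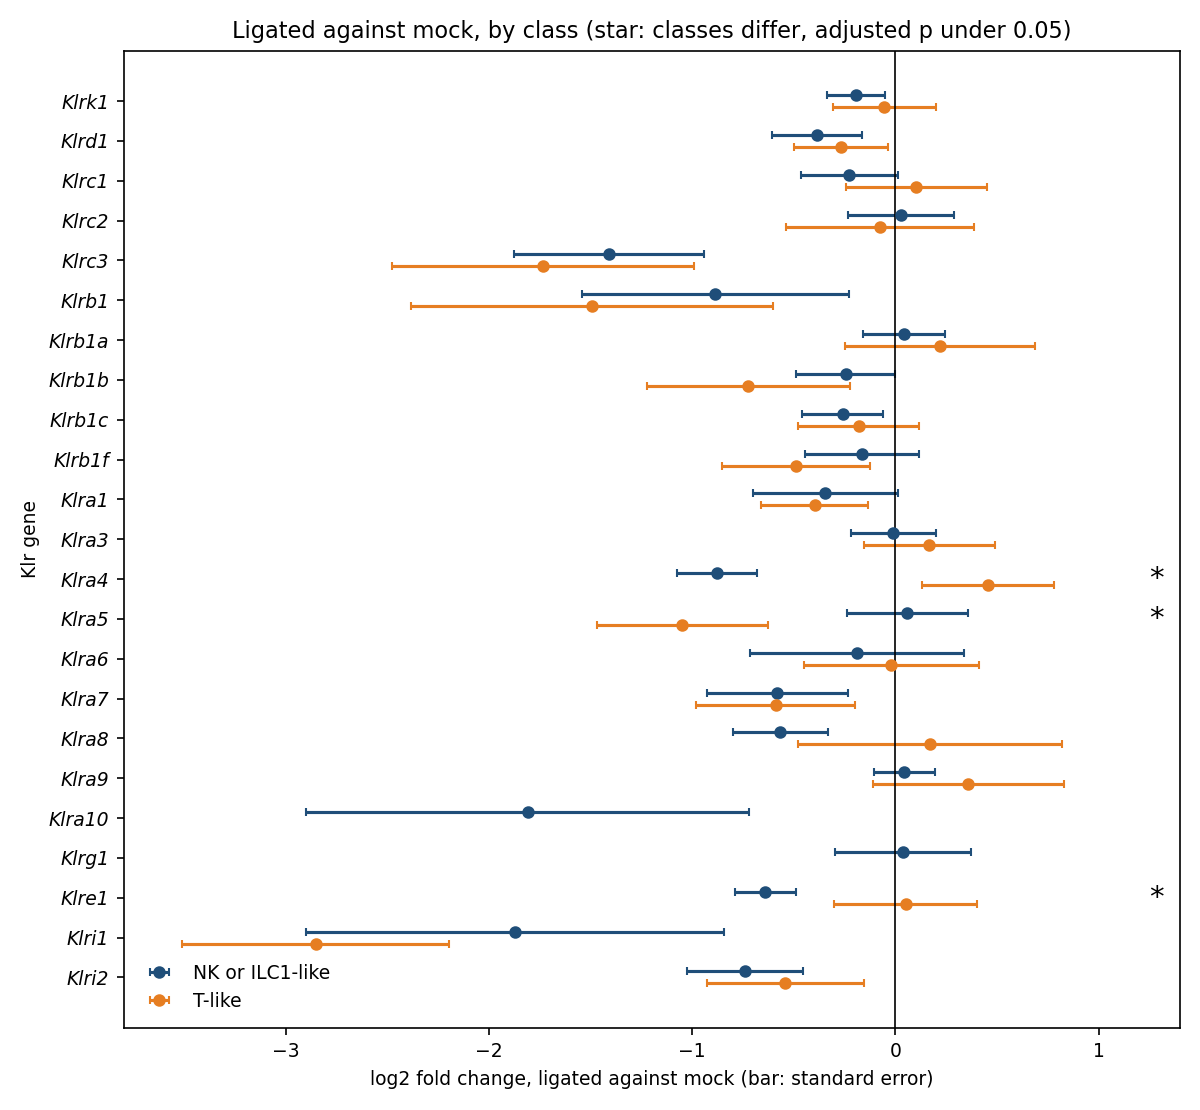
Log2 fold change of ligated against mock (horizontal; bars are standard errors) for each described member tested, in NK or ILC1-like cells (blue) and T-like cells (orange). Stars mark Klra4, Klra5 and Klre1, for which the classes differed at an adjusted p under 0.05.

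Genes that work with the family were taken as lists. Of 17 adapters and signalling genes, all tested, 0 passed in either class; in NK or ILC1-like cells 8 lay below and 4 above every mock library (27.6 and 27.2% of all genes), with a median log2 fold change of 0.08 against -0.02. Tyrobp encodes DAP12, through which Ly49D and Ly49H signal, and had 3382 in NK or ILC1-like cells of the ligated library and 2504, 2999 and 3078 in the mock libraries, above each of them (log2 fold change 0.25, SE 0.17). Hcst, which encodes the NKG2D adapter DAP10, had 646, 571, 609.9 and 663, within the mock range.

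Of 19 ligand genes, 17 were in the joined lists and 10 were tested in each class, with 0 passing. In NK or ILC1-like cells 3 lay below every mock library (B2m, Cdh1 and Clec2d) and 3 above, against 27.6 and 27.2% of all genes. Clec2d, the ligand of Klrb1b, had 237 in the ligated library and 385, 364 and 363 in the mock libraries (log2 fold change -0.64, SE 0.16; edgeR adjusted p = 0.611). It had 212, 427, 427 and 391 in T-like cells and 539, 702, 838 and 844 in endothelial-like cells, so that the ligated library was lowest in each. Cdh1 (E-cadherin, the Klrg1 ligand) had 90.2, 124, 149 and 137 in NK or ILC1-like cells. H2-T23 (Qa-1, the ligand of CD94/NKG2A) had 145, 133, 357 and 305 in NK or ILC1-like cells, so that its libraries split by software version. The NKG2D ligands were low: Ulbp1 had 4.09 to 7.65 in endothelial-like cells, and Raet1d and H60c were at or near 0.

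Of 15 other NK receptor genes, 13 were tested in NK or ILC1-like cells, with 0 passing, 6 below and 4 above every mock library. Of all genes tested in this class, 27.6% lay below and 27.2% above every mock library. Ncr1 (NKp46) had 357 in the ligated library against 490, 629 and 591 (log2 fold change -0.67, SE 0.20), and Cd69, an activation and residency marker, 619 against 362, 262 and 277 (1.05, SE 0.24; edgeR adjusted p = 0.611). Of 13 transcription factors of these lymphocytes, 0 passed, with a median log2 fold change of -0.27. Beside the same shares of all genes, 5 lay below every mock library (Eomes, Nfil3, Runx3, Tcf7 and Zeb2) and 1 above (Zfp683). Tcf7, which encodes TCF1, had 7.96 in NK or ILC1-like cells of the ligated library and 39.3, 26.4 and 26.6 in the mock libraries (log2 fold change -1.94, SE 0.37, edgeR adjusted p = 0.611). A Tcf7 UMI was found in 31.3% of NK-like and 2.45% of Gzmc ILC1-like cells. The part of the lower NK-like share after ligation in this class value was not tested.

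In the test of the difference between classes, 7 genes of these lists passed. Lower in NK or ILC1-like than in T-like cells were the surgery differences of the signalling genes Sh2d1a (log2 -1.20; edgeR adjusted p = 3.41e-05) and Sh2d2a (-0.68; 0.00879), of the receptor Cd160 (-0.71; 0.00353) and of the transcription factors Tox (-0.87; 0.000212), Eomes (-1.12; 0.00459) and Tcf7 (-0.94; 0.0254). That of the receptor Cd226 was higher (0.53; 0.00938). By list, these were 2 of 17 signalling genes, 2 of 13 receptors, 3 of 13 transcription factors and 0 of 10 ligand genes tested, beside 1.16% of all genes. The term called 19 genes in all without mock 2 and 13 with DESeq2. Eomes and Sh2d1a were among the leading genes of NK-like cells, and Tcf7 was found more often there than in Gzmc ILC1-like cells. The share of NK-like cells in their class was lower after ligation, and the make-up of the T-like class also differed. The part of these shares in the calls was not tested.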

How the data were processed

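The deposited values are counts, raw UMI counts per gene and called cell barcode in 1 sparse matrix per library, deposited by the authors without scaling. The tool is Cell Ranger 7.0.1, on mm10, per the submitters' processing notes, whereas per the file headers it was 6.0.1 (ligated, mock 1) or 7.0.0 (mock 2, mock 3), a difference not resolved here. The counting of intronic reads is not given in the sources, and longer, intron-rich genes could differ between these pairs.

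Genes were joined by ID. UMIs outside the joined IDs made up 0.0538 to 0.456% of a library. Cells with under 500 UMIs, under 300 genes or over 15% mitochondrial UMIs were left out. Scrublet within scanpy 1.11.5 called and removed 732 (5.50%), 76 (1.66%), 171 (1.85%) and 1 (0.00787%) barcodes, so that it had not worked in mock 3 and doublets remain there. Clusters came from leidenalg 0.10.2 at a resolution of 1 on 2000 variable genes and 30 principal components (Python 3.11.15, numpy 2.4.6, scipy 1.17.1, anndata 0.12.19); lymphocytes were clustered again with each gene centred within its library. Unnamed lymphocytes (14.5, 9.94, 9.71 and 11.8% of lymphocytes) entered no class.

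UMIs were summed per library and class and tested with edgeR 4.0.16 in R 4.3.3 (TMM, filterByExpr, quasi-likelihood test, Benjamini-Hochberg adjustment over all genes, threshold 0.05). The between-class model had terms for library, class and class by surgery. Alternatives were DESeq2 1.42.0, no filter on low counts, each mock library left out, a term for the software version, and other cell sets. The class sums held 4099457 to 19093866 UMIs in NK or ILC1-like cells and 620651 to 4443690 in T-like cells. On simulated counts the test recovered 88 of 100 genes changed 4-fold and 14 of 100 changed 2-fold in NK or ILC1-like cells (11693 genes). In T-like cells (9117 genes) it recovered 80 and 19 of 100. There were 4 and 10 false calls in all. The simulation gave every gene the same spread (a dispersion of 0.05) and no split of the libraries by software version. The real libraries split in that way, so these figures do not measure how the test behaved on them.

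Members with at least 100 UMIs in the NK or ILC1-like or the T-like class were described with their value in every library; the others were named once. Genes in the lists were named where they passed a test, are the partner of a member described, or were chosen after their values were seen (Cd69, Tcf7, Ncr1). The members, lists and markers were chosen with earlier results of these data known. Intervals and limits at 95% cover counting error only. Promoter sequences are from RefSeq (GRCm38.p6); Klrd1, Klrg1 and Klri2 had no entry in the table used.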

Additional observations from a re-analysis of the deposited data

Results flagged for a closer look

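For 3 members the ligated against mock difference differed between NK or ILC1-like and T-like cells in the test of that difference itself. On the log2 scale the difference of Klra4 was -1.391 relative to T-like cells (edgeR adjusted p = 3.81e-05), with the ligated library below 3 of 3 mock libraries in NK or ILC1-like cells and above 3 of 3 in T-like cells. Within T cells with NK genes, Klra4 had 78.3 CPM in the ligated library and 69.3, 85.7 and 51.5 in the mock libraries, so that the ligated value lay within them. For Klre1 it was -0.729 (edgeR adjusted p = 0.0152), with the ligated library below 3 of 3 mock libraries in NK or ILC1-like cells and within them in T-like cells. For Klra5 it was 1.028 (edgeR adjusted p = 0.0435), with the ligated library within the mock libraries in NK or ILC1-like cells and below 3 of 3 in T-like cells. In NK-like cells alone, the ligated Klra5 level also lay below 3 of 3 mock libraries, and in ILC1-like cells it lay within them. The lower Klra5 level was thus not particular to T-like cells. Over the settings tried, the adjusted p of Klra4 lay between 4.17e-15 and 0.062, that of Klre1 between 2.05e-09 and 1.0 and that of Klra5 between 0.00147 and 1.0.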

How the results depend on the processing

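No paired analysis was possible because there is 1 ligated library, so the groups share fewer than 2 replicate numbers. Leaving out 1 mock library at a time gave 0 to 6840 genes and 0 to 15 Klr members in NK or ILC1-like cells, 1 to 3198 genes and 0 to 8 members in T-like cells, 0 to 6435 genes and 0 to 16 members in ILC1-like cells, 0 to 3100 genes and 0 to 13 members in NK-like cells, and 19 to 306 genes and 0 to 6 members for the between-class term. The high end of each came without mock 1, which left mock 2 and 3, the mock libraries of 1 software version. With a term for the software version, 1131, 275, 1129 and 333 genes passed in the NK or ILC1-like, T-like, ILC1-like and NK-like fits, with 4 members (Klra4, Klrb1f, Klre1 and Klri2), 2 (Klra5 and Klrc2), 4 (Klra4, Klra5, Klrb1f and Klre1) and 2 (Klra4 and Klra5). Spread in that fit comes from mock 2 and 3 alone. The directions were not all alike. Klra5 was higher in the ligated library than in mock 1 in ILC1-like cells (34.3 against 23.1 CPM) and lower in NK-like cells. In T-like cells Klrc2 had a log2 fold change of -0.74 with this term and 0.36 without mock 1. DESeq2 called 47, 29, 19 and 7 genes in those 4 fits, and 13 genes with 1 member for the between-class term. Without the filter on low counts, edgeR called 1, 260, 1 and 5 genes, and 1 member (Klri1) in T-like cells. Sub-clusters from genes not centred within libraries gave 2 genes in ILC1-like, 1 in NK-like and 0 in T-like cells, and a resolution of 0.5 gave 0 in T-like cells. The causes of these shifts were not tested.

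Unthinned cells had 3.66, 3.52, 3.75 and 3.62 Klra genes. The summed Klr level of T-like cells was 2635, 2865, 2605 and 3154 at a resolution of 0.5, 2468 in the ligated library with at least 1000 UMIs per cell, and 2001 in mock 1 without doublet removal. Of 299 member values in NK or ILC1-like cells 265 kept their direction, of 271 in T-like cells 230, and of 115 between classes 109; 0 values past the threshold reversed.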

Other observations

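Klra2 (Ly49B), a Ly49 gene known from myeloid cells, was higher in macrophage or monocyte-like cells than in NK or ILC1-like cells in every library. It had 72.7 CPM there in the ligated cells and 71.6, 241 and 220 in mock 1, 2 and 3, against 0.576, 0.244, 1.63 and 0.928 in NK or ILC1-like cells. The ligated library and mock 1 again stood together below mock 2 and 3. Klra17 (Ly49Q), also known from myeloid cells, had 1.27, 8.32, 9.66 and 5.26 in macrophage or monocyte-like cells, with the ligated library below each mock library, and 0 UMIs in T-like cells. No test was run on that class.

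Which Ly49 genes were found together in a cell was not even across genes. With cells thinned to 1500 UMIs, Klra9 was detected in 23.7, 21.7, 26.7 and 14.0% of the NK-like cells with a Klra1 UMI and in 42.0, 42.5, 46.8 and 40.8% of those without, in ligated, mock 1, 2 and 3. Klra3 showed the same, with 15.8, 8.70, 6.67 and 5.26% against 25.2, 21.6, 29.6 and 26.3%. Klra8, in contrast, was found more often in NK-like cells with a Klra4 UMI in all 4 libraries, by 7.33 to 17.0 percentage points. In Gzmc ILC1-like cells the Klra1 and Klra9 order held in all 4 libraries (by 6.11 to 32.3 points lower), while Klra4 and Klra8 did so in 3. Of 48 ordered pairs with at least 20 cells in each library, 8 were lower and 4 higher together in all 4 libraries in NK-like cells, and 13 and 4 in Gzmc ILC1-like cells. A pair and its reverse point the same way, and most of these pairs are counted in both orders. These are descriptions of cells, which are not replicates, and reads shared between near copies such as Klra8 and Klra9 were not separated.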
